A study of Capra hircus with 12 samples.

Results

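Versican (VCAN) and the genes of hyaluronan metabolism were followed across 12 RNA-seq libraries of cultured goat temporomandibular joint (TMJ) cells. The 10 genes were selected by name from the 28910 rows of the count tables: VCAN, the link protein genes HAPLN1 and HAPLN3, the hyaluronan synthase genes HAS1, HAS2 and HAS3, the receptor gene CD44, TNFAIP6, and the degradation genes HYAL2 and CEMIP. VCAN itself was chosen by its large fall in the libraries labelled IL-1β + LOXL2. Its LOXL2 fold changes, with their SEs and intervals, are therefore given as a description without a test. Its difference between the layers was not used in that choice and was tested, as was every comparison of the other 9 genes.

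Hyaluronan is a long sugar polymer that HAS enzymes extrude at the plasma membrane from UDP-sugars. Versican, a large chondroitin sulfate proteoglycan, binds it through its N-terminal domain, and link proteins lock that bond, which builds a hydrated pericellular coat. In cartilage, aggrecan (ACAN) does the same on a larger scale, while versican is typical of fibrous tissue and of early chondrogenesis. The coat is anchored by receptors such as CD44 and taken apart by hyaluronidases, by CEMIP and, at the protein core, by ADAMTS proteases.

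Cells came from the condylar fibrocartilage of female abattoir goats under a year old. They were separated into cells of the superficial (SLC) and the medial (MLC) cartilage layer and expanded in culture. IL-1β, an inflammatory cytokine, was given for an hour before harvest. From each layer there were 3 IL-1β libraries and 3 IL-1β + LOXL2 libraries, the latter from cells transduced overnight with a LOXL2 adenovirus before the cytokine. All 12 libraries therefore carried IL-1β, and untreated cells were not analysed here. For flow cytometry the study used an empty adenovirus in the cells without LOXL2, but its culture methods do not say whether the sequenced IL-1β cells received one, so an effect of the virus itself was not tested. Layer and cell preparation cannot be told apart. The number of goats behind the replicates is not given in the sources used here, so p-values measure only the spread between these libraries, which may be technical.

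Library totals ranged from 14158607 to 28931652 counts. LOXL2 itself, at 458 to 561 CPM (counts scaled by library size and TMM factor) in the SLC libraries labelled IL-1β + LOXL2 against 615 to 633 with IL-1β, and at 742 to 815 against 767 to 876 in MLC, was not higher with LOXL2, and every direction given rests on the labels. Replicate 1 of the LOXL2 group stood apart in SLC: its chi-square per degree of freedom against its fellows was 159 and 58.1, against 29.2 for the other pair and at most 9.37 within the IL-1β groups. In MLC the pairs with replicate 1 of the LOXL2 group gave 15.2 and 33.9, against 5.81 for the other pair. Of the 11 chondrocyte markers in the tables, COL2A1 and COL9A1 were at 0 in all SLC IL-1β libraries and at 16.6 ± 5.50 and 14.01 ± 2.19 CPM (SD, n = 3) in MLC IL-1β libraries, and MATN1 was at 0 throughout. Of 8 tested, 6 were higher in MLC under IL-1β and none lower, beside 24.2% of all genes higher and 22.7% lower. COL11A1 stood at 1233 ± 62.0 CPM in SLC and 1195 ± 28.8 CPM in MLC (adjusted p = 0.609 with edgeR) and COL9A3 at 1.55 ± 0.16 and 1.37 ± 0.19 CPM. Of other cell types, 6 leukocyte markers summed to 56.1 to 141 CPM, most of it CD14 (47.2 to 133 CPM). PTPRC was at 0 in the IL-1β groups and at most 0.10 CPM with LOXL2. Of 4 leukocyte markers tested for LOXL2 over both layers, 1 passed (CD68, 0.51, adjusted p = 0.0333 with edgeR), beside 52.1% of all genes. CD3E was at 0.48, CD14 at -0.27 and CSF1R at -0.29, with adjusted p from 0.0978 to 0.241 with edgeR. The 6 endothelial markers summed to 1.48 to 4.29 CPM, with EMCN at 0 throughout. VWF, the only 1 tested between the layers, was higher in MLC under IL-1β (1.27, adjusted p = 2.87e-04 with edgeR). PECAM1, not tested, stood at 0.14 CPM in MLC and 0.37 CPM in SLC on average under IL-1β.

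VCAN spans 120048 bases at chr7:27133454-27253501 (goat build ARS1.2). It is annotated with 3 transcripts, which gene counts do not resolve. In SLC, VCAN stood at 1788, 2443 and 1976 CPM in the IL-1β libraries and at 925, 555 and 680.0 CPM in the LOXL2 libraries (replicates 1, 2 and 3). In MLC it stood at 2655, 2648 and 2679 CPM with IL-1β and at 1858, 1336 and 1092 CPM with LOXL2. No LOXL2 library reached the lowest IL-1β library of its layer, and in both layers replicate 1 was the least affected.

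The mean VCAN level fell from 2069 ± 338 to 720.2 ± 188 CPM (SD, n = 3) in SLC, a fitted log2 fold change of -1.54 (SE 0.22) or a 2.90-fold lower level. In MLC the mean fell from 2661 ± 15.9 to 1429 ± 391 CPM, a log2 fold change of -0.90 (SE 0.15) or 1.87-fold lower. The fold change over both layers, with layer as a term, was -1.21 (SE 0.17). Against the IL-1β mean of their layer, the SLC LOXL2 libraries kept 44.7%, 26.8% and 32.9% of VCAN, and the MLC ones 69.8%, 50.2% and 41.0%. Leaving out replicate 1 of the LOXL2 group gave -1.77 for SLC and -1.13 for MLC on the log2 scale. Since cells were measured in bulk, fewer VCAN-expressing cells and less VCAN RNA per cell cannot be told apart.

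Fold changes with LOXL2 moved with the genomic span of genes in these libraries. Genes spanning over 100 kb, as VCAN and CEMIP do, had a median of -0.43 on the log2 scale in SLC (1959 genes) and -0.30 in MLC (1915 genes), whereas genes under 10 kb had 0.37 and 0.23. When each library's trend of expression on span was removed, the log2 fold change of VCAN was -1.17 in SLC, -0.64 in MLC and -0.90 over both layers. Without that step it was -1.54, -0.90 and -1.21. VCAN was chosen by its fall, so the sign that remained is no test. Summed chondrocyte marker levels also moved with the groups, at 1300 to 1425 CPM in SLC IL-1β libraries against 748 to 1298 with LOXL2, and 1752 to 1897 against 1470 to 1855 in MLC. Most of that sum was COL11A1, a gene of 229950 bases (1233 ± 62.0 to 859 ± 280.4 CPM in SLC). COL11A1 was lower over both layers (-0.37, adjusted p = 0.0331 with edgeR), whereas COMP was higher with LOXL2 in MLC (0.37, adjusted p = 0.0283 with edgeR). The SLC median over 6 tested chondrocyte markers was 0.02, with 3 higher and 3 lower. In MLC the median over 8 tested was -0.09, with 2 higher and 6 lower. The 7 fibroblast and superficial layer markers summed to 61678 to 73051 CPM in the 12 libraries. Over both layers 4 of the 7 passed (adjusted p from 0.00307 to 0.0205 with edgeR), beside 52.1% of all genes, with 27.4% higher and 24.8% lower. THY1 (0.43) and DPT (0.27) were higher with LOXL2, and PDGFRA (-0.58) and COL3A1 (-0.22) lower. Of 2 mural and muscle markers tested in MLC, CNN1 was higher with LOXL2 (0.52, adjusted p = 0.0229 with edgeR), beside 21.6% of all genes called. MYH11 was at -0.03 (adjusted p = 0.859 with edgeR). Over both layers CNN1 was at 0.31 (adjusted p = 0.0461 with edgeR), and MYH11 (-0.15) and RGS5 (-0.19) did not pass. No marker of these lists passed in SLC, where no gene of the whole table did with edgeR. The part of any of these markers in the VCAN difference was not tested.

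Ordered by mean, VCAN was highest in MLC with IL-1β, followed by SLC with IL-1β, MLC with LOXL2 and SLC with LOXL2. The ranges of the first and last neighbouring pairs did not overlap, whereas SLC with IL-1β (lowest 1788 CPM) and MLC with LOXL2 (highest 1858 CPM) did. Under IL-1β alone, VCAN was higher in MLC than in SLC by 0.37 on the log2 scale (SE 0.09, adjusted p = 0.00474, edgeR's quasi-likelihood test, adjusted over all genes by the Benjamini-Hochberg method, as for every adjusted p here unless another tool is named). That call was lost in a fit on all 12 libraries (adjusted p = 0.232).

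**Figure D1:**
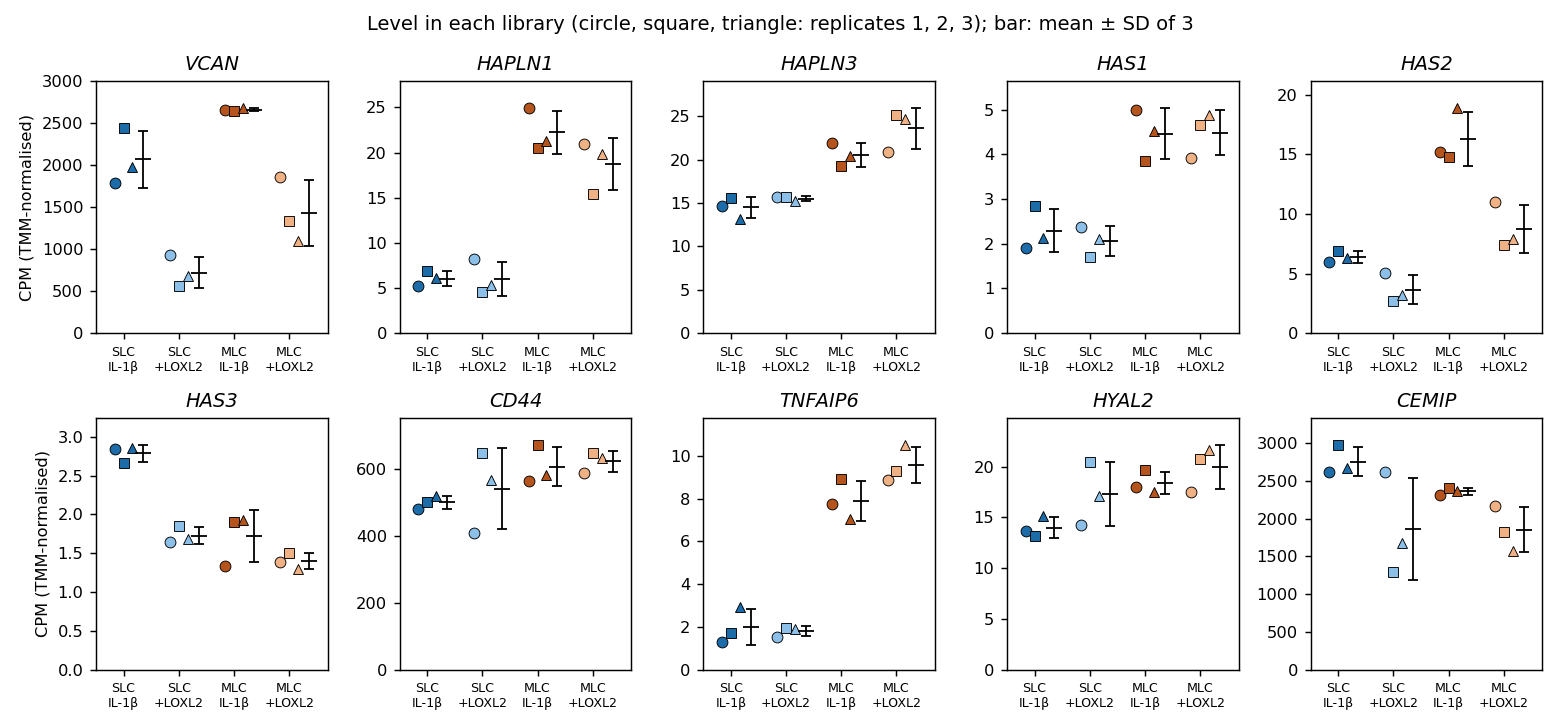
Level of each of the 10 genes in CPM (vertical axes, each from 0) in the 4 groups, with replicates 1, 2 and 3 as circles, squares and triangles and the mean ± SD of 3 libraries beside them. VCAN and HAS2 are lower in every LOXL2 library than in any IL-1β library of the same layer, while HAPLN1 and TNFAIP6 separate the layers.

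The genes whose levels ran most like VCAN over the 12 libraries, among 12262 genes, were ZNF532, ABL2, WWC2, ABHD2 and TRRAP, with Pearson's r of log2 levels from 0.980 to 0.986. Their spans were 89580 to 148224 bases. Of the other 9 genes, HAS2 ran closest to VCAN (r = 0.86, rank 884), followed by CEMIP (r = 0.75, rank 2009). HYAL2 ran against it (r = -0.26), and with group means removed more so (r = -0.86), as did CD44 (r = -0.66), whereas CEMIP rose to 0.90. These correlations are descriptive, since the libraries share treatment groups and replicate 1 of each LOXL2 group stood apart.

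HAS2, the main synthase of long hyaluronan chains in most mesenchymal cells, was the other gene of the 10 that was lower with LOXL2 in every library of both layers. The gene lies at chr14:63935102-63975351. In SLC, HAS2 measured 5.94, 6.92 and 6.32 CPM with IL-1β and 5.02, 2.70 and 3.19 CPM with LOXL2. In MLC it measured 15.2, 14.8 and 18.9 CPM with IL-1β and 11.04, 7.37 and 7.86 CPM with LOXL2. Groups did not overlap in either layer, and in both replicate 1 of the LOXL2 group lay nearest to the IL-1β libraries.

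The HAS2 log2 fold change was -0.83 in SLC (SE 0.25, 95% interval -1.42 to -0.24), which missed the threshold of 0.05 (adjusted p = 0.0708), and -0.89 in MLC (SE 0.17, 95% interval -1.26 to -0.52), which passed it (adjusted p = 0.0190). Over both layers HAS2 fell by 0.86 on the log2 scale (SE 0.15, adjusted p = 0.00365), that is 1.81-fold. In SLC, HAS2 passed with DESeq2's Wald test (adjusted p = 0.0189) and, without replicate 1 of the LOXL2 group, with edgeR (log2 fold change -1.15, adjusted p = 2.93e-04). In MLC the HAS2 call was lost without IL-1β replicate 1 (adjusted p = 0.0780), IL-1β replicate 3 (0.0889) or LOXL2 replicate 2 (0.107), and without LOXL2 replicate 1 the log2 fold change was -1.09 (adjusted p = 2.72e-05).

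HAS3, a synthase of shorter chains, was scarce, with 19 to 60 raw counts per library. The gene lies at chr18:37572658-37599097. In SLC it measured 2.84, 2.66 and 2.86 CPM with IL-1β and 1.64, 1.85 and 1.69 CPM with LOXL2, without overlap. The MLC levels were 1.34, 1.90 and 1.93 CPM with IL-1β and 1.39, 1.502 and 1.30 CPM with LOXL2, where the groups overlapped. The HAS3 log2 fold change was -0.70 in SLC (SE 0.19, adjusted p = 0.0706) and -0.31 in MLC (SE 0.27, adjusted p = 0.421), and over both layers HAS3 fell by 0.52 (SE 0.14, adjusted p = 0.00977). In SLC, HAS3 passed with DESeq2 (adjusted p = 0.0353) and, without replicate 1 of the LOXL2 group, with edgeR (adjusted p = 0.0250).

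HAS1, at chr18:58717578-58728892, was as scarce, with 37 to 90 raw counts. Its SLC levels were 1.91, 2.84 and 2.12 CPM with IL-1β and 2.37, 1.70 and 2.10 CPM with LOXL2. Its MLC levels were 5.00, 3.86 and 4.52 CPM with IL-1β and 3.92, 4.65 and 4.88 CPM with LOXL2. Both pairs of groups overlapped, and the log2 fold change was -0.18 in SLC (95% interval -0.75 to 0.40, adjusted p = 0.586) and 0.0029 in MLC (95% interval -0.41 to 0.41, adjusted p = 0.993), so a change of the size seen for HAS2 in MLC lay outside the MLC interval.

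HAPLN1, cartilage link protein, lies 60330 bases from VCAN on chromosome 7 (chr7:26994304-27073123) with no annotated gene between them. In SLC it measured 5.22, 6.83 and 6.07 CPM with IL-1β and 8.16, 4.52 and 5.33 CPM with LOXL2. In MLC it measured 24.9, 20.5 and 21.2 CPM with IL-1β and 20.9, 15.5 and 19.8 CPM with LOXL2. The groups overlapped in both layers, so the neighbour of VCAN gave no separation by treatment. Its log2 fold change was -0.03 in SLC (95% interval -0.61 to 0.56, adjusted p = 0.941) and -0.24 in MLC (95% interval -0.54 to 0.06, adjusted p = 0.208). HAPLN1 was lower past the threshold in MLC without replicate 1 of the LOXL2 group (-0.32, adjusted p = 0.0471), whereas with the span trend removed its value was -0.0070 in MLC and 0.28 in SLC, neither past the threshold.

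HAPLN3, a link protein expressed more widely, lies at chr21:19746184-19765509, 1282 bases from ACAN. It measured 14.7, 15.6 and 13.2 CPM with IL-1β and 15.7, 15.7 and 15.2 CPM with LOXL2 in SLC. MLC levels were 22.0, 19.3 and 20.4 CPM with IL-1β and 20.9, 25.2 and 24.7 CPM with LOXL2. The groups overlapped in both layers, and the log2 fold change was 0.08 in SLC (95% interval -0.19 to 0.36, adjusted p = 0.595) and 0.20 in MLC (95% interval -0.06 to 0.45, adjusted p = 0.236). Its MLC value was higher past the threshold without replicate 1 of the LOXL2 group (0.28, adjusted p = 0.0336).

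CD44, the main cell-surface receptor of hyaluronan, lies at chr15:17197402-17286604 and has 8 annotated transcripts. In SLC it measured 481, 500.1 and 518 CPM with IL-1β and 409, 648 and 566 CPM with LOXL2, so the LOXL2 libraries lay on both sides of the IL-1β libraries. In MLC it measured 564, 672 and 581 CPM with IL-1β and 588, 648 and 632 CPM with LOXL2. The CD44 log2 fold change was 0.10 in SLC (95% interval -0.29 to 0.49, adjusted p = 0.662) and 0.04 in MLC (95% interval -0.16 to 0.24, adjusted p = 0.789). Without replicate 1 of the LOXL2 group, CD44 was higher in SLC past the threshold (0.26, adjusted p = 0.0391), and with the span trend removed it was higher over both layers (0.40, adjusted p = 0.0313) where the original value was 0.08 (adjusted p = 0.512).

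TNFAIP6 (chr2:91438209-91456033) encodes TSG-6, a secreted protein that binds hyaluronan and moves heavy chains of inter-alpha-inhibitor onto it, and is a known target of inflammatory cytokines. In SLC it measured 1.29, 1.73 and 2.91 CPM with IL-1β and 1.55, 1.96 and 1.91 CPM with LOXL2. The MLC libraries read 7.75, 8.90 and 7.05 CPM with IL-1β and 8.87, 9.30 and 10.5 CPM with LOXL2. Groups overlapped in both layers, with a log2 fold change of -0.14 in SLC (95% interval -0.90 to 0.62, adjusted p = 0.747) and 0.27 in MLC (95% interval -0.05 to 0.60, adjusted p = 0.193).

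HYAL2, a membrane-anchored hyaluronidase that cuts long chains, lies at chr22:50102362-50107589 and shares a stretch of 17553 bases with HYAL1 and HYAL3. In SLC it measured 13.6, 13.2 and 15.2 CPM with IL-1β and 14.2, 20.5 and 17.1 CPM with LOXL2. In MLC it measured 18.0, 19.6 and 17.5 CPM with IL-1β and 17.5, 20.7 and 21.7 CPM with LOXL2. Again replicate 1 of each LOXL2 group sat among the IL-1β libraries while the other 2 replicates lay above them. The HYAL2 log2 fold change was 0.29 in SLC (95% interval -0.08 to 0.65, adjusted p = 0.187), 0.12 in MLC (adjusted p = 0.504) and 0.21 over both layers (adjusted p = 0.0824). HYAL2 was higher in SLC past the threshold once replicate 1 of the LOXL2 group was left out (0.40, adjusted p = 0.0164), whereas with the span trend removed its value was 0.01 in SLC (adjusted p = 0.952) and -0.062 in MLC (adjusted p = 0.703).

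CEMIP, a hyaluronan-binding protein needed for hyaluronan breakdown in fibroblasts, has the longest span of the 10 genes at 160225 bases (chr21:26265452-26425676). In SLC it measured 2614, 2978 and 2674 CPM with IL-1β and 2616, 1291 and 1682 CPM with LOXL2, so replicate 1 of the LOXL2 group lay within the IL-1β range and the other 2 replicates well below it. In the MLC libraries it stood at 2319, 2411 and 2363 CPM with IL-1β and 2167, 1822 and 1571 CPM with LOXL2, without overlap. The CEMIP log2 fold change was -0.58 in SLC (SE 0.25, 95% interval -1.17 to 0.01, adjusted p = 0.121). In MLC, CEMIP fell by 0.35 (SE 0.11, adjusted p = 0.0390), and over both layers by 0.46 (SE 0.14, adjusted p = 0.0168).

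The CEMIP call depended on the libraries and on the span trend. Without replicate 1 of the LOXL2 group the SLC log2 fold change was -0.92 (adjusted p = 1.69e-04) and the MLC one -0.48 (adjusted p = 1.16e-04). With the trend removed it was -0.21 in SLC (adjusted p = 0.330), -0.08 in MLC (adjusted p = 0.479) and -0.14 over both layers (adjusted p = 0.199). The MLC call was also lost without any other single library (adjusted p from 0.0903 to 0.151).

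**Figure D2:**
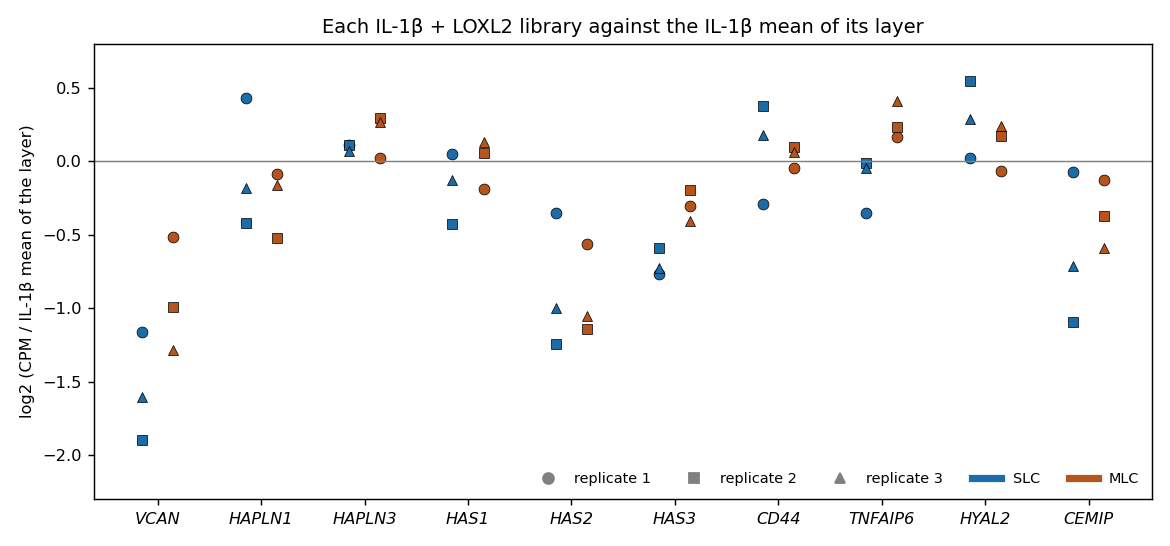
Log2 ratio of each IL-1β + LOXL2 library to the IL-1β mean of its layer (vertical axis) for the 10 genes, SLC in blue and MLC in orange, with circles, squares and triangles for replicates 1, 2 and 3. For VCAN, HAS2 and CEMIP the circle lies nearest to 0 in both layers, and in MLC replicate 1 was the nearest for 8 of 10 genes.

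Counted together, none of the 9 tested genes passed the threshold in SLC, where 0% of all 14103 genes tested did so with edgeR. The lowest adjusted p of any gene there was 0.0706, a value that HAS3 shared. At an unadjusted p under 0.05 there were 2 (HAS2 and HAS3), beside 43.3% of all genes, and with DESeq2's Wald test 2 passed (HAS2 and HAS3), beside 30.0% of all genes. Without replicate 1 of the LOXL2 group, 5 passed (CEMIP, CD44, HYAL2, HAS2 and HAS3), beside 61.7% of all genes. In the full set, 3 of the 10 genes had groups that did not overlap in SLC (VCAN, HAS2 and HAS3, all lower), beside 49.0% of all genes. VCAN's place in that count was fixed by the choice of genes. The median log2 fold change of the 9 genes was -0.14, and of all genes 0.01.

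In MLC, 2 of 9 passed (HAS2 and CEMIP, both lower), beside 21.6% of all genes in either direction and 11.8% lower. Groups did not overlap for 3 of the 10 (VCAN, HAS2 and CEMIP), beside 41.5% of all genes. With the span trend removed, HAS2 alone passed in MLC (-0.78, adjusted p = 0.0203), beside 14.7% of all genes. Without replicate 1 of the LOXL2 group, 4 passed (CEMIP, HAPLN1, HAPLN3 and HAS2), beside 48.1% of all genes. In a fit on all 12 libraries none did with edgeR, and 1 of 9 had an unadjusted p under 0.05. In that fit, and without IL-1β replicate 1, IL-1β replicate 3 or LOXL2 replicate 2, no gene of the whole table passed in MLC (3677 to 3971 genes at an unadjusted p under 0.05), so every MLC call with edgeR given here was lost there. The median of the 9 was 0.0029, and of all genes 0.0079.

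Over both layers, 3 of 9 passed (HAS2, HAS3 and CEMIP, all lower), beside 52.1% of all genes in either direction and 24.8% lower. With the span trend removed, HAS2 (-0.73, adjusted p = 0.00326) and HAS3 (-0.49, adjusted p = 0.0169) were still lower and CD44 was higher, beside 45.1% of all genes. Without span correction, HAS2, HAS3 and CEMIP each stayed past the threshold when any single library was left out, whereas the CEMIP call was lost with the trend removed (adjusted p = 0.199).

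**Figure D3:**
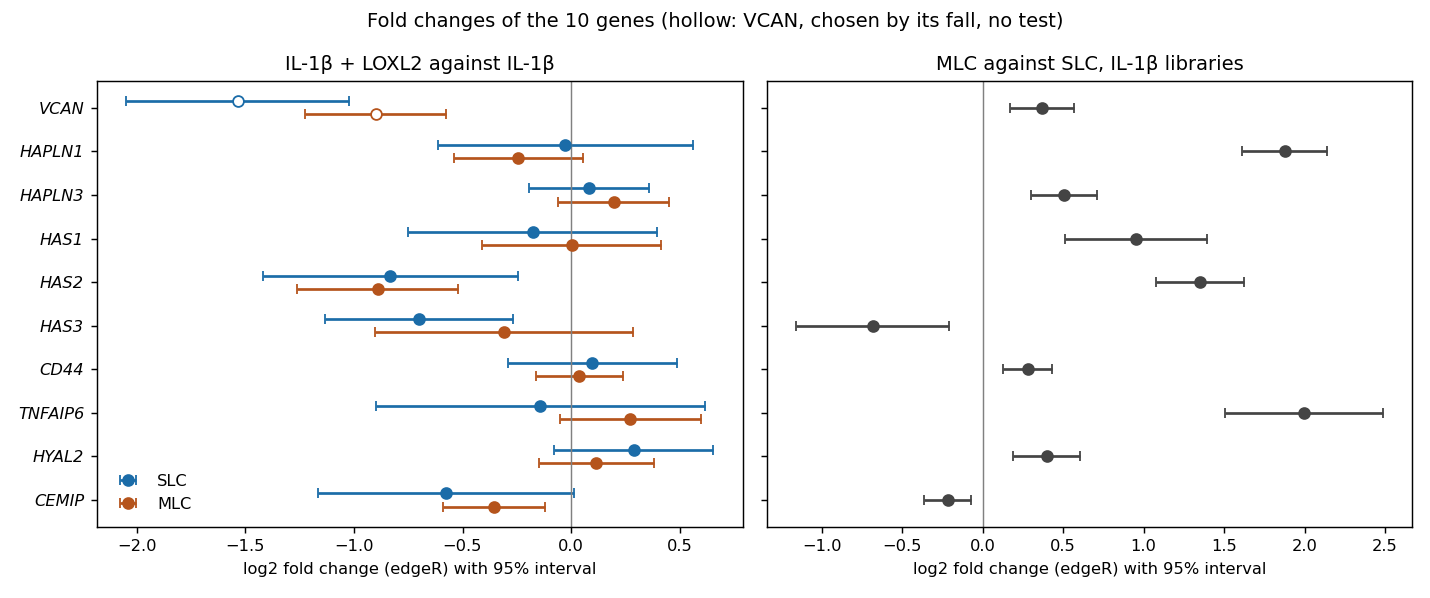
Fitted log2 fold change with its 95% interval (horizontal axes) for the 10 genes, at left IL-1β + LOXL2 against IL-1β in SLC (blue) and MLC (orange), at right MLC against SLC among the IL-1β libraries. VCAN is hollow at left because it was chosen by that value, so its intervals there are descriptive and no test. HAS2 lies near -0.83 and -0.89 in SLC and MLC, and at right 8 genes lie above 0 and HAS3 and CEMIP below.

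The difference of the LOXL2 effect from layer to layer was tested with an interaction term over the 12 libraries. No gene of the 9 passed (adjusted p from 0.959 to 0.979), none at an unadjusted p under 0.05 and none with DESeq2, beside 0% of all 14534 genes. The widest difference was that of TNFAIP6 at 0.40 (95% interval -0.33 to 1.13), and HAS2 gave -0.07 (95% interval -0.76 to 0.62). The intervals do not show that the layers responded alike. VCAN's own difference, given without a test, was 0.63 towards a smaller fall in MLC.

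The layers differed in hyaluronan genes under IL-1β alone, without LOXL2 in either group. All 10 genes passed the threshold, 8 higher and 2 lower in MLC, beside 46.9% of all 13965 genes, of which 24.2% were higher and 22.7% lower. All 10 also had groups that did not overlap, beside 55.8% of all genes. The median log2 difference was 0.45 for the 10 genes and -0.0069 for all genes.

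TNFAIP6 was the furthest apart, 3.99-fold higher in MLC (log2 difference 1.997, SE 0.23, adjusted p = 5.92e-06), with every MLC library at 7.05 CPM or more and every SLC library at 2.91 or less. HAPLN1 was 3.67-fold higher (1.88, SE 0.12, adjusted p = 2.00e-08), with MLC libraries from 20.5 to 24.9 CPM and SLC libraries from 5.22 to 6.83. Among the synthases, HAS2 was 2.55-fold higher in MLC (1.35, SE 0.13, adjusted p = 8.05e-07) and HAS1 1.93-fold higher (0.95, SE 0.21, adjusted p = 0.00161), whereas HAS3 was lower by 0.68 (SE 0.22, adjusted p = 0.0209). Thus the 3 synthase genes did not share a direction between the layers.

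Smaller differences were found for HAPLN3 (0.51, SE 0.10, adjusted p = 6.20e-04), HYAL2 (0.40, SE 0.10, adjusted p = 0.00380) and CD44 (0.28, SE 0.07, adjusted p = 0.00486), all higher in MLC. CEMIP was lower in MLC by 0.22 (SE 0.07, adjusted p = 0.0167), a call lost without SLC replicate 2 (adjusted p = 0.0773), MLC replicate 1 (0.0738) or MLC replicate 3 (0.0670), and with the span trend removed (0.114). The HAS3 call was lost without SLC replicate 1 (adjusted p = 0.0570), SLC replicate 3 (0.0528) or MLC replicate 1 (0.0985), and with DESeq2 (0.0570). In a fit on all 12 libraries 6 of the 10 passed (HAPLN1, HAPLN3, HAS1, HAS2, HAS3 and TNFAIP6), beside 25.6% of all genes.

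In the libraries with LOXL2, the layers kept apart in HAPLN1 (4.52 to 8.16 CPM in SLC, 15.5 to 20.9 in MLC), TNFAIP6 (1.55 to 1.96 against 8.87 to 10.5) and HAS2 (2.70 to 5.02 against 7.37 to 11.04). CEMIP (1291 to 2616 against 1571 to 2167 CPM), CD44 (409 to 648 against 588 to 648 CPM) and HYAL2 (14.2 to 20.5 against 17.5 to 21.7 CPM) overlapped there. The share of all genes that kept apart in these libraries was not counted.

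The surroundings of these genes were described by 7 lists of 50 further genes: UDP-sugar supply, other hyalectans and link proteins, hyaluronan-binding proteins and heavy chain donors, other receptors, other degrading enzymes, versican-cleaving ADAMTS proteases and matrix partners of versican. In SLC 31 of the 50 were tested and none passed with edgeR, although 17 had an unadjusted p under 0.05 (43.3% of all genes) and 12 passed with DESeq2's Wald test (30.0% of all genes). In MLC 10 of 30 passed, 3 higher and 7 lower (all genes: 21.6%, with 9.81% higher and 11.8% lower), and over both layers 16 of 31, 5 higher and 11 lower (all genes: 52.1%, with 27.4% higher and 24.8% lower). The median log2 fold change was -0.12 in MLC and -0.11 over both layers.

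ADAMTS proteases that cut the versican core were among the genes that fell. Of 4 tested, 3 were lower in MLC, beside 11.8% of all genes: ADAMTS5 by 0.93 (SE 0.18, adjusted p = 0.0190), ADAMTS9 by 0.56 (SE 0.11, adjusted p = 0.0194) and ADAMTS1 by 0.49 (SE 0.10, adjusted p = 0.0198). In SLC their values were -1.46, -0.92 and -1.08, each with an adjusted p of 0.0706, the lowest of any gene in SLC. Over both layers the same 3 fell by 1.19, 0.73 and 0.77. ADAMTS5 measured 265, 254 and 198 CPM with IL-1β and 113, 71.2 and 79.5 CPM with LOXL2 in SLC, and 161, 214 and 172 against 128, 91.6 and 68.5 CPM in MLC. ADAMTS9 overlaps another annotated gene, so its counts are less certain. With the span trend removed, the MLC calls of ADAMTS5 and ADAMTS1 held and that of ADAMTS9 was lost. The remaining tested gene, ADAMTS4, did not pass in MLC (-0.06, adjusted p = 0.801). VCAN was also lower in these libraries, but that was fixed by its choice, and a joint fall was not tested.

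Of 5 tested degrading enzymes other than HYAL2 and CEMIP, 2 rose in MLC, beside 9.81% of all genes: HYAL3, a hyaluronidase family member, by 0.54 (SE 0.18, adjusted p = 0.0452) and HEXA, a lysosomal hexosaminidase subunit, by 0.36 (SE 0.11, adjusted p = 0.0358). Over both layers HYAL3 rose by 0.50, HEXA by 0.41 and HYAL1 by 0.29 (adjusted p from 0.00493 to 0.0189). These 3 genes span 3200 to 31530 bases, and HYAL3 overlaps another annotated gene. With the span trend removed, the calls of HYAL3 in MLC and of HYAL1 over both layers were lost, whereas HEXA passed in both.

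Matrix partners of versican were split. The fibrillin genes FBN2 and FBN1, which encode microfibril proteins, fell in MLC by 0.90 (SE 0.14, adjusted p = 0.0190) and 0.70 (SE 0.15, adjusted p = 0.0199), and TNC, tenascin-C, by 0.45 (SE 0.12, adjusted p = 0.0286). FBLN2, fibulin-2, rose by 0.32 (SE 0.10, adjusted p = 0.0421). Over both layers EGFR, a cell-surface receptor gene kept in the same list, also fell (-0.46, adjusted p = 0.00485). FBN2 and FBN1 span 226314 and 275163 bases, and their MLC calls held with the span trend removed, whereas those of TNC and GFPT1 in MLC and of EGFR over both layers were lost. For substrate supply, GFPT1, the first enzyme of the hexosamine pathway, fell in MLC (-0.37, SE 0.12, adjusted p = 0.0409) and over both layers (-0.50, adjusted p = 0.00393), where UGDH, which makes UDP-glucuronate, fell too (-0.35, adjusted p = 0.00610). The receptor genes HMMR (-0.47, adjusted p = 0.0146) and TLR4 (-0.35, adjusted p = 0.0357) were lower over both layers. ACAN had log2 fold changes of -0.27 in SLC (adjusted p = 0.358) and -0.23 in MLC (adjusted p = 0.145).

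**Figure D4:**
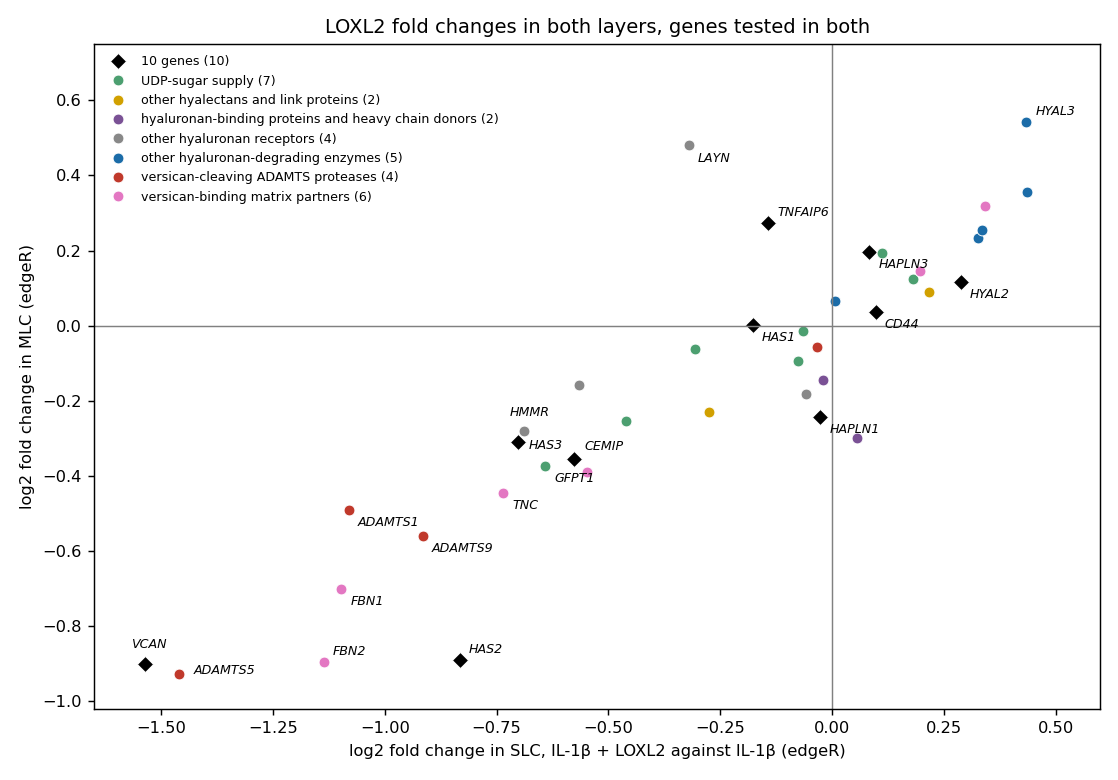
Log2 fold change with LOXL2 in SLC (horizontal axis) against MLC (vertical axis) for the 10 genes (black diamonds) and the genes of the 7 further lists tested in both layers (circles, colour by list, number in brackets). VCAN, ADAMTS5, FBN2, FBN1 and HAS2 lie at the lower left, and the other hyaluronan-degrading enzymes (blue) lie above 0 on both axes.

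Between the layers under IL-1β, 26 of 31 listed genes passed, 16 higher and 10 lower in MLC, beside 46.9% of all genes, with 24.2% higher and 22.7% lower. In the fit on all 12 libraries 17 of 31 passed, beside 25.6% of all genes. ACAN was higher by 3.08 on the log2 scale (SE 0.08, adjusted p = 2.77e-12), PTX3, a pentraxin that joins TSG-6 in the hyaluronan matrix, by 1.74 (SE 0.24) and ADAMTS4 by 1.58 (SE 0.12). PTX3 and EGFR overlap other annotated genes. FBLN2 was lower by 1.70, EGFR by 1.49 and FBN1 by 1.18. ADAMTS1 (1.26) and ADAMTS9 (0.47) were higher in MLC whereas ADAMTS5 was lower (-0.39, adjusted p = 0.0100), and UGDH was higher by 0.71.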

How the data were processed

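Poly-T selected RNA was sequenced as paired-end reads. Per the submitters' processing notes, HISAT2 and featureCounts were used, and per the paper reads were mapped to goat ARS1.2. What the authors deposited is 1 table of raw gene counts for each layer, without normalization. How strand and multiply mapping reads were handled is not given in the sources used here, so counts of overlapping genes are uncertain. RNA extraction is given as RNeasy in the labels and as TRIzol in the paper. The tables have 28910 rows each, 1783 of them sharing a name with another row. All 10 genes matched 1 row each, and none overlaps another annotated gene.

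Tests were run on the whole table with edgeR 4.0.16 (R 4.3.3): TMM factors, filterByExpr (minimum count 10, minimum total 15), glmQLFit and glmQLFTest. The LOXL2 effect was fitted in the 6 libraries of each layer, the layer difference in the 6 IL-1β libraries, and both layers together and the interaction in all 12. Adjusted p-values are Benjamini-Hochberg over all genes tested, with a threshold of 0.05. The paper used DESeq2, here run as an alternative (DESeq2 1.42.0). Standard errors were obtained as the log2 fold change over the root of F. CPM values use TMM factors over the 12 libraries and do not correct for gene length, so levels of different genes were not compared. Alternatives were DESeq2's size factors, no filter on low counts, the replicate block, each library left out in turn, 1 fit of all 12 libraries, and the gene-span trend removed as an offset (lowess of log2 CPM on log10 genomic span, smoother span 0.3). A fit that leaves out a library has 2 in that group. The procedure was tested on simulated counts.

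The genes, the lists and the tests were chosen with earlier results of these data known. Genes named beyond the 10 are ACAN, ADAMTS5, up to 3 called genes of the lists in each direction per comparison, the 5 genes most like VCAN and LOXL2. All further listed genes (ADAMTS1, ADAMTS4 in MLC, ADAMTS9, TNC, GFPT1, UGDH, HMMR, TLR4, HYAL1, EGFR over both layers, and single marker genes) were chosen after their values were seen. Of the listed names, STAB1, SPAM1, CEMIP2, CNMD and LYZ were not found as written. A listed gene that passed over both layers is counted but not reported here by name. Coordinates are from the RefSeq annotation of ARS1.2. Sequences and transcript lengths were not used here.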

Additional observations from a re-analysis of the deposited data

How the results depend on the processing

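In SLC the count of called genes among the 9 tested was 0, beside 0 of all 14103 genes. It became 2 under DESeq2's Wald test (4234 of 14103 genes) and 3 when all 12 libraries were fitted together (5965 of 14534). With single libraries left out it was 0 to 5 (5 without LOXL2 replicate 1, beside 8849 of 14334 genes, otherwise 0). In MLC the count was 2, beside 2958 of all 13664 genes. It became 1 with the gene-span trend removed (2000 of 13637 genes) and 0 in the fit on all 12 libraries (0 of 14534). With single libraries left out it was 0 to 4. It was 4 without LOXL2 replicate 1 (6653 of 13838 genes), and 0 without IL-1β replicate 1 or 3 or LOXL2 replicate 2. Over both layers it was 3 (7578 of 14534 genes), and 3 to 5 with single libraries left out (5 without SLC LOXL2 replicate 1, beside 8806 of 14718 genes). Between the layers it was 10 (6548 of 13965 genes), and became 6 in the fit on all 12 libraries (3715 of 14534). With single libraries left out it was 8 to 10, beside 5410 to 6625 of all genes. The interaction gave 0 throughout.

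Deviations of same-numbered replicates from their group means had correlations from -0.227 to 0.124, and those of differently numbered ones from -0.263 to 0.241. With 3 libraries per group, these values cannot settle whether the numbers pair the libraries. With the replicate block the counts were 0 in SLC (0 of all 14103 genes) and 2 in MLC (4053 of 13664). They were 3 over both layers (7138 of 14534) and 9 between the layers (5816 of 13965).

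Directions turned for some genes, none of them past the threshold. With the span trend removed, HAPLN1 was 0.28 in SLC and 0.13 over both layers, ACAN 0.0039 in SLC, HAS1 -0.096 in MLC, and HYAL2 -0.062 in MLC and -0.0099 over both layers. HAS1 in MLC was -0.0012 with DESeq2's size factors and -0.00098 with its Wald test. With single libraries left out, SLC values ranged from -0.31 to 0.0064 for HAS1, from -0.33 to 0.15 for HAPLN1, from -0.048 to 0.26 for CD44 and from -0.37 to 0.24 for TNFAIP6. MLC values ranged from -0.093 to 0.099 for HAS1 and from -0.0083 to 0.12 for CD44, and HAS1 over both layers from -0.13 to 0.012. The cause of these turns was not tested. HAS1, HAS3 and TNFAIP6 have few counts in some libraries, which limits their precision.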
